A study of Mus musculus with 6 samples.

Results

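The Celf and Elavl genes encode the RNA-binding proteins of the CELF (CUGBP Elav-like) and ELAVL (Hu) families. Members were the rows of the deposited gene table whose symbol is Celf1 to Celf6 or Elavl1 to Elavl4. All 10 were found among 15095 genes, 6 of the Celf and 4 of the Elavl family. The table comes from polyA RNA of 3 libraries of Setd2-KO and 3 libraries of wild-type neural progenitor cells (NPCs). Both genotypes were derived from mouse embryonic stem cells, which were kept for 4 days as aggregates without retinoic acid and for 4 more days with it at 5 uM, so that cells were collected at day 8. SETD2 is the methyltransferase that places H3K36me3 in the bodies of transcribed genes. The sources used here do not say which Setd2-KO clone the libraries came from, or whether the 3 libraries of a genotype were separate differentiations. Each member has 1 level in the table, the authors' average log2 CPM (CPM, read counts scaled to the same total in each library) over all 6 libraries, Setd2-KO and wild type together. The other value columns hold the authors' own comparison of the genotypes and were not used. The levels below therefore describe the mixture of both genotypes, carry no SD, and cannot show whether Setd2-KO and wild-type NPCs differ.

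Both families recognise short sequences in RNA through RNA recognition motifs. ELAVL proteins bind AU-rich and U-rich elements, mostly in 3' untranslated regions, and are best known for stabilising the bound mRNAs. CELF proteins bind GU-rich elements and are known for regulating alternative splicing, deadenylation and mRNA decay. Elavl1 (HuR), Celf1 (CUGBP1) and Celf2 are active in many tissues. Elavl2 (HuB), Elavl3 (HuC) and Elavl4 (HuD) are hallmarks of neurons, with Elavl2 also known from the gonads, and Celf3, Celf4, Celf5 and Celf6 are known mainly from the nervous system.

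The promoters of the pair of members with the highest level per kb of transcript are shown so that their CpG content can be seen. Each window runs from 250 bases before to 50 bases after a RefSeq transcription start (build GRCm38.p6), is printed 5' to 3' on the gene's strand, and has its CpG dinucleotides in capitals. The Elavl3 window, chr9:22051974-22052273 on the minus strand, held 29 CpGs. The most upstream of 7 Celf3 windows, chr3:94478045-94478344 on the plus strand, held 4, while 5 of the other Celf3 windows held between 9 and 12 and the remaining one held 1.
Elavl3: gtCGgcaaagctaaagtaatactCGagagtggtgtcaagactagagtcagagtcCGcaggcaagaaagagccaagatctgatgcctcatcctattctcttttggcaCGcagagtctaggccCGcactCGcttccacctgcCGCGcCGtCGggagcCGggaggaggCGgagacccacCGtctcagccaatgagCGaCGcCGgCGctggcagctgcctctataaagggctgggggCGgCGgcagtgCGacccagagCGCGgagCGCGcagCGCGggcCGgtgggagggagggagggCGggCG
Celf3: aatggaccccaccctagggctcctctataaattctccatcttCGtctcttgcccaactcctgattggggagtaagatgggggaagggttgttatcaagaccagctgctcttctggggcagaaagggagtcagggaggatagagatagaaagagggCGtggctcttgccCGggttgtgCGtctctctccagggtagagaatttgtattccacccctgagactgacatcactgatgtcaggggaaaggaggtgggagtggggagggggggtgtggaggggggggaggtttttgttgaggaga

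Of the 10 members, 9 lay above the median of the table, an average log2 CPM of 4.57. Over all genes, the average log2 CPM ranged from -2.54 to 14.2, and the middle 50% of genes lay between 2.08 and 6.05. Elavl3 had the highest level of the members with an average log2 CPM of 8.38, which places it 422nd from the top and above 97.2% of all genes. It was followed by Celf1 with 8.17, Celf3 with 7.80 and Elavl1 with 7.64 (average log2 CPM), each above at least 93.7% of genes. Next came Elavl4 with an average log2 CPM of 6.73, Celf4 with 6.04 and Elavl2 with 5.55, above 85.1%, 74.7% and 66.7% of genes. Celf2 (average log2 CPM 4.94) and Celf5 (4.79) lay close to the median of the table. Celf6 stood apart at the low end at 2.83 CPM, an average log2 CPM of 1.5, above 21.4% of genes. The step between neighbours in this order was between 0.15 (Celf2 over Celf5) and 0.91 (Elavl1 over Elavl4) on the log2 CPM scale, save for the last one, from Celf5 to Celf6, which was 3.29. Since the table gives no spread over libraries, it cannot be said which neighbours differ beyond it.

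**Figure D1:**
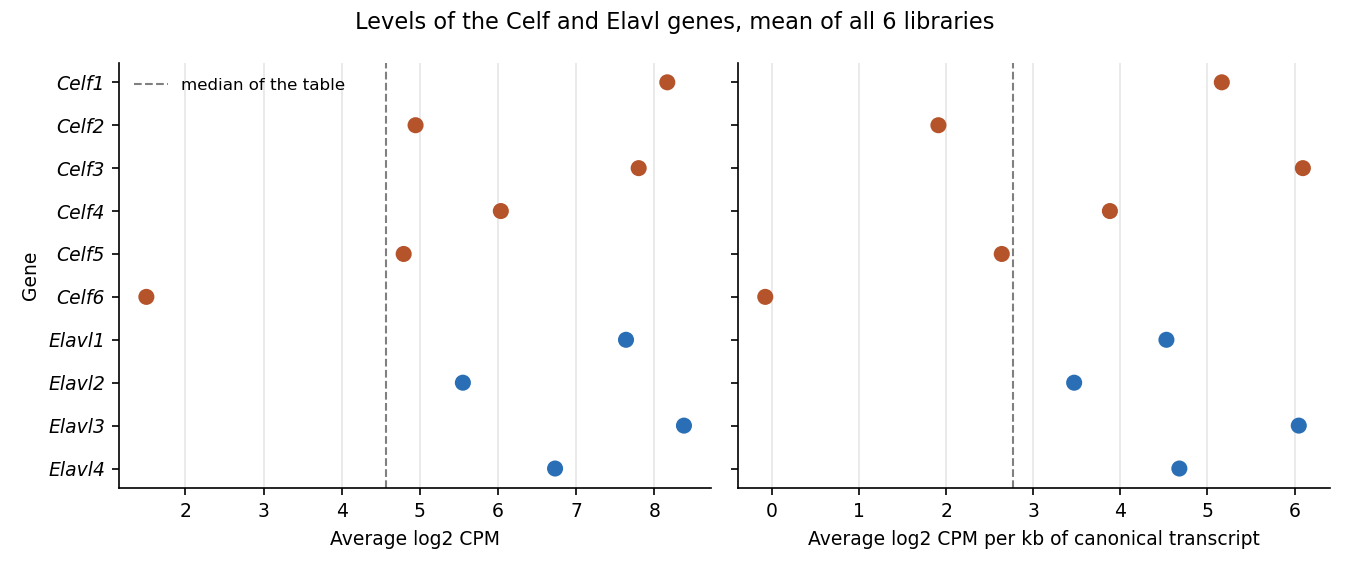
Level of each member (y axis) as the authors' average log2 CPM over the Setd2-KO and wild-type libraries (left x axis) and as the same value per kb of canonical transcript (right x axis). Each point is 1 gene, Celf genes in orange and Elavl genes in blue, and the dashed line is the median of all genes. Celf6 lies lowest on both scales, and Elavl3 and Celf3 lie highest per kb.

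**Figure D2:**
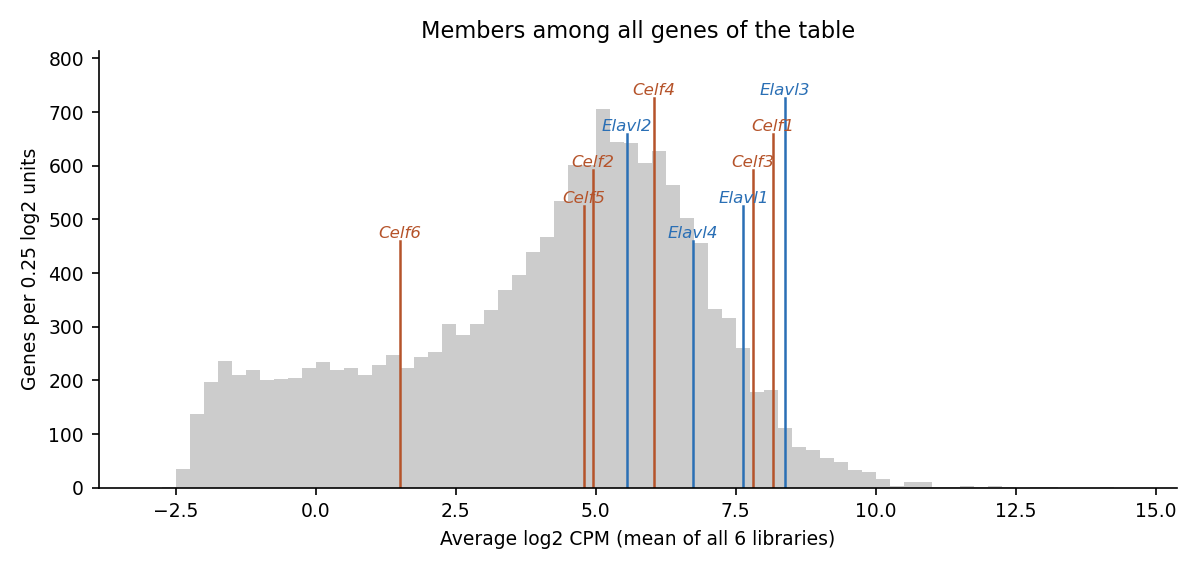
Number of genes (y axis) in bins of 0.25 of the average log2 CPM (x axis) over all 15095 genes, with the position of each member marked by a vertical line, orange for Celf and blue for Elavl (the heights of the lines carry no value). Celf1, Celf3, Elavl1 and Elavl3 lie in the upper tail, and Celf6 alone of the members lies below the median of the table, 4.57.

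Reads per gene also depend on transcript length, so levels of different members were compared per kb of their canonical transcript (GENCODE vM39 on GRCm39). The gene IDs of the members carry older version numbers, so these are not the lengths over which reads were counted, and levels per kb are approximate. The canonical transcripts ranged from 2979 bases for Celf6 to 8625 bases for Elavl1. Most of the long ones consist of 3' untranslated sequence, which made up 81.4% of the Elavl1 and 76.6% of the Celf1 transcript, against 33.0% of that of Celf3. Coding lengths were closer to each other, from 978 bases (326 residues) for Elavl1 to 1656 bases (552 residues) for Celf4. Per kb, Celf3 with 6.09 and Elavl3 with 6.05 had the highest levels, followed by Celf1 with 5.16 (average log2 CPM per kb). The order of the first pair turned with the merged length of all exons, which gave 5.16 for Celf3 and 5.59 for Elavl3. Celf1 had 5.04 with that length, only just below Celf3. Per kb of canonical transcript, Elavl4 came next with 4.68, then Elavl1 with 4.53, Celf4 with 3.88 and Elavl2 with 3.47. Celf5 (2.64), Celf2 (1.91) and Celf6 (-0.08) lay below the median of the table per kb, which was 2.77 over the 15066 genes with a length. With the canonical length, Celf3 thus stood above Celf1 and slightly above Elavl3, Elavl4 above Elavl1 and Celf5 above Celf2, each the reverse of the order by log2 CPM.

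**Figure D3:**
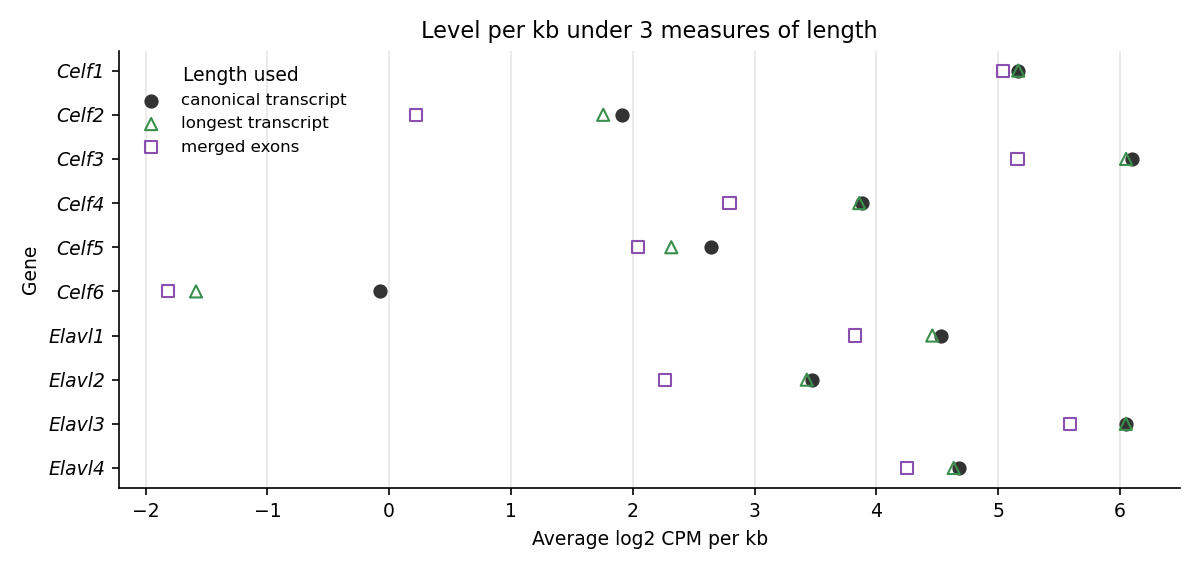
Average log2 CPM per kb (x axis) of each member (y axis) with 3 measures of length: the canonical transcript (filled circles), the longest annotated transcript (triangles) and all annotated exons merged (squares). The squares of Celf2 and Celf6 lie farthest to the left of the circles, at 0.22 against 1.91 and at -1.82 against -0.08.

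Within the Elavl family, the neuronal members carried most of the reads. The 4 genes summed to 684.9 CPM, of which Elavl3 took 48.6%, Elavl1 29.1%, Elavl4 15.5% and Elavl2 6.84%. Elavl2, Elavl3 and Elavl4 thus made up 70.9% of the family's CPM and 81.7% of its CPM per kb of canonical transcript. Elavl1, the broadly expressed member whose canonical transcript is the longest of the family, made up 18.3% per kb. All 4 Elavl genes lay above the median of the table on both scales, and their levels per kb spanned 2.58 log2 units.

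The Celf family had a sum of 636.8 CPM and a wider range, 6.17 log2 units per kb. Celf1, which promotes deadenylation and decay of GU-rich mRNAs, took 45.1% of the family's CPM, and Celf3 took 34.98%. Per kb of canonical transcript, the shares were 27.6% for Celf1 and 52.6% for Celf3. This gap depends on the length used, since with merged exons their levels were close, 5.04 and 5.16 log2 CPM per kb. Celf4, a neuronal member, followed with 10.3% of CPM and 11.3% of CPM per kb. Celf2 (4.84% of CPM), Celf5 (4.35%) and Celf6 (0.44%) contributed little. Celf3 to Celf6 together made up 50.1% of the family's CPM, nearly all of it from Celf3 and Celf4. Per kb of canonical transcript, Celf3 to Celf6 made up 69.5%, a share that was not computed with the other lengths. Summed per kb, both families were of like size, with 129.9 CPM per kb for Celf and 125.9 CPM per kb for Elavl.

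**Figure D4:**
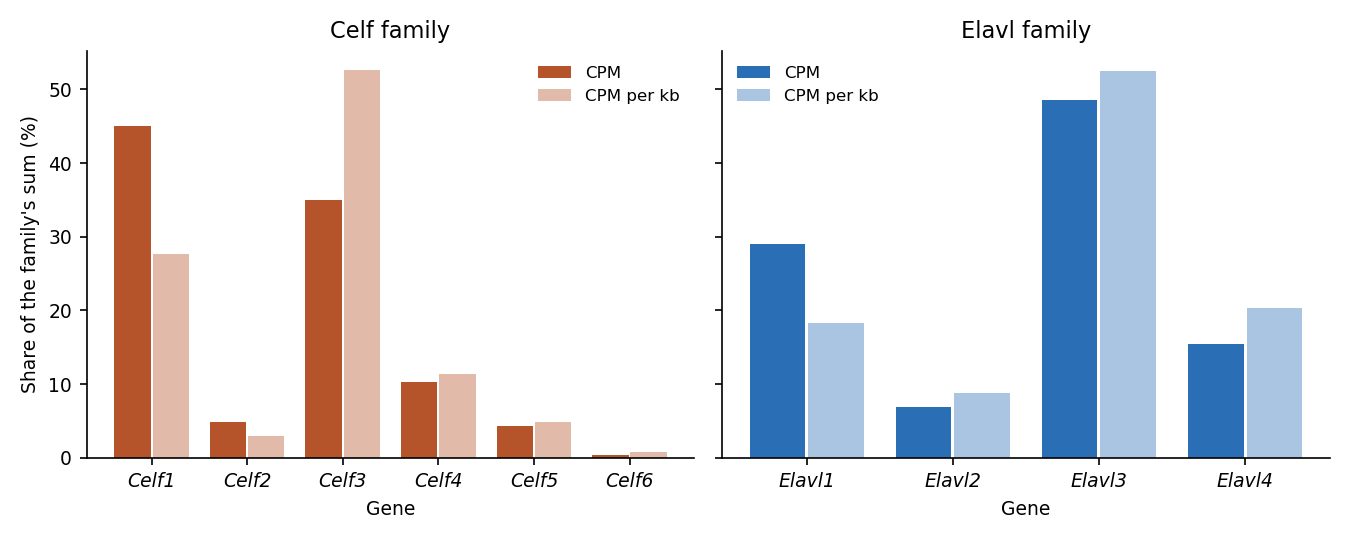
Share (%, y axis) of each member (x axis) in the summed level of the Celf family (left) and of the Elavl family (right), from CPM (dark bars) and from CPM per kb of canonical transcript (light bars). Celf3 has 34.98% of CPM and 52.6% of CPM per kb, and Elavl3 has 48.6% and 52.5%.

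The members differ strongly in gene structure (GENCODE vM39 on GRCm39). Celf2, on chromosome 2 from 6544505 to 7514374, spans 969.9 kb with 39 annotated transcripts, and its longest intron in the canonical transcript is 163.2 kb. Celf4, on chromosome 18 from 25610508 to 25887427, spans 276.9 kb with 174 annotated transcripts. Elavl2 (chromosome 4, 91138905 to 91289022) and Elavl4 (chromosome 4, 110060810 to 110209142) span 150.1 and 148.3 kb. Celf1, on chromosome 2 from 90770584 to 90849842, spans 79.3 kb. Elavl1 (chromosome 8, 4332576 to 4375489), Elavl3 (chromosome 9, 21926301 to 21963324) and Celf6 (chromosome 9, 59485200 to 59519885) span 42.9, 37.0 and 34.7 kb. Celf5, on chromosome 10 from 81295061 to 81318559, spans 23.5 kb. Celf3, on chromosome 3 from 94385602 to 94399505, is the shortest gene with 13.9 kb. The canonical transcript has 6 exons for Elavl1, 7 for each of the other Elavl genes and 12 to 14 for the Celf genes. The 3 members with the highest level per kb, Celf3, Elavl3 and Celf1, span 13.9, 37.0 and 79.3 kb, and the 3 with the lowest, Celf5, Celf2 and Celf6, span 23.5, 969.9 and 34.7 kb.

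Exact sequence shared with transcripts of other genes was rare, compared in the sense direction only, so that overlaps on the opposite strand are not counted. Of all windows of 100 bases in the canonical transcripts, 0 occurred exactly in a transcript of another gene for 9 members. For Elavl3, 3.18% of windows also occurred in Gm49318, which is not among the rows of the table. Gm49318 is annotated on the same strand over 15649 bases of Elavl3, introns included. Celf3 overlaps exons of Snx27 and Riiad1 on the opposite strand (average log2 CPM 6.48 and 1.04), and Elavl1 overlaps exons of Ccl25 on the opposite strand (3.84). Celf3, Celf4, Celf5, Celf6 and Elavl4 also overlap exons of long noncoding RNA genes on the opposite strand, none of which has a level here. For the low Celf6, that gene is Gm51709, whose span overlaps that of Celf6 over 10532 bases, introns included. The library kit keeps strand, but the sources used here do not state whether reads were counted by strand, so a part of the reads of these pairs may be shared.

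Promoter windows were present for 9 members, 32 windows in all, with Celf4 not among them. The median over all 32851 mouse windows of the same 300 bases was 7 CpGs. Elavl1 (39 CpGs), Celf1 (34) and Elavl3 (29) each have a single window, which was richer in CpG than at least 87.1% of all windows. The 7 windows of Celf3 held between 1 and 12 CpGs, and the 4 of Elavl4 between 4 and 23. Those of Elavl2 held between 10 and 27, and those of Celf5 between 11 and 23. Celf2 has both kinds, with 48 CpGs in 1 of 5 windows and between 4 and 8 in the others. So does Celf6, the member with the lowest level, with 31 CpGs in 1 window, more than 89.4% of all windows, and 4 in the other. The pair with the highest levels per kb thus had a CpG-rich window in Elavl3 and, in Celf3, windows of which 5 of 7 lay moderately above the median of all windows and 2 below it. Motifs were searched as exact letters on both strands, and windows of 1 gene can overlap each other. The TATA box core TATAAA was found in 4 windows of 3 members (Celf2, Celf3 and Elavl3) and in 13.6% of all windows. The GC box GGGCGG was found in 16 windows of 7 members and in 35.7% of all windows, and CCAAT in 17 windows of 7 members and in 37.4%. Of the site of REST, a repressor of neuronal genes outside neurons, the left part TTCAGCACC was found in 0 member windows and 0.371% of all windows. The right part GGACAGC was found in 1 window of Celf2 and in 6.56% of all windows. The left part is so rare over all windows that 0 of 32 member windows says little about the members. Sequence outside the windows was not searched.

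Other RNA-binding proteins placed these levels in context. Of 42 other RNA-binding genes in 3 lists, all in the table, 10 had a higher level per kb than Celf3 and 10 had a higher one than Elavl3. Celf1 had 18 of them above it, Elavl4 21, Elavl1 22, Celf4 25 and Elavl2 29. Celf5, Celf2 and Celf6 had 32, 33 and 39 of the 42 above them. Among the other binders of AU-rich elements, 9 genes with a median of 5.59 log2 CPM per kb, the genes with the most CPM were Ybx1 (9.02 log2 CPM per kb), Hnrnpd (6.24) and Khsrp (5.83), and Zfp36 (1.03), which promotes decay of AU-rich mRNAs, had the least. The 16 other splicing regulators, of which not all are tissue-restricted, had a median of 4.18 log2 CPM per kb. Those with the most CPM were Ptbp1 (7.14 log2 CPM per kb), Khdrbs1 (6.50) and Ptbp2 (6.35), and Khdrbs2 (-0.96) had the least. Among 17 RNA binders of translation and RNA localization, with a median of 5.04 log2 CPM per kb, the progenitor gene Msi1 (7.49 log2 CPM per kb), Igf2bp1 (5.63) and Pum2 (5.45) had the most CPM and Cpeb3 (-1.29) had the least. The median was 4.60 log2 CPM per kb for the 4 Elavl genes and 3.26 for the 6 Celf genes.

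Transcripts known as targets of both families covered a wide range of levels. All 15 listed ELAVL targets were in the table, 11 of them above its median per kb, with the most CPM for Actb (9.67 log2 CPM per kb), Trp53 (6.78) and the cyclin gene Ccna2 (5.91) and the least for Fos (-0.02). All 10 listed CELF targets were in the table, 6 of them above its median per kb, with the most CPM for Actn1 (4.24 log2 CPM per kb), the insulin receptor gene Insr (3.12) and Jun (4.36) and the least for the heart gene Tnnt2 (-2.01).

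**Figure D5:**
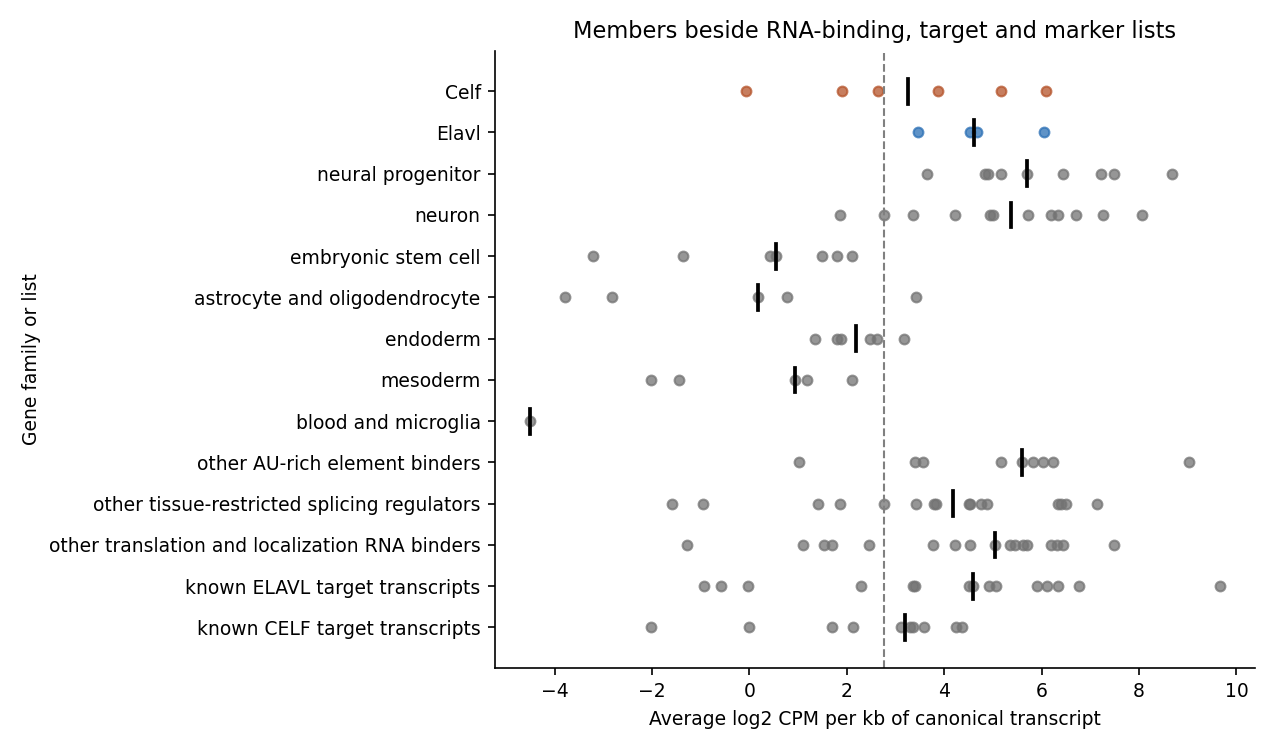
Average log2 CPM per kb of canonical transcript (x axis) of the Celf genes (orange), the Elavl genes (blue) and the genes of 12 lists (grey) on the y axis. Each point is 1 gene, black bars are medians and the dashed line is the median of the table. The Elavl genes, with a median of 4.60, all lie to the right of the dashed line, as do all measured progenitor markers, whereas all measured stem cell markers lie to its left.

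Markers of neural progenitors and markers of neurons were both at high levels, which bears on the members because Elavl2 to Elavl4 and Celf3 to Celf6 are themselves typical of neurons. Of 10 markers of neural progenitors, 9 were in the table and all 9 lay above its median per kb, with the most CPM for Vim (8.69 log2 CPM per kb), Msi1 and Pax6 (5.70) and the least for Fabp7 (3.65). Sox1 was not among the rows. Genes were looked up by symbol, and why a listed gene was absent was not tested. Of 12 neuron markers, all were in the table and 10 lay above its median per kb, with the most CPM for Tubb3 (8.07 log2 CPM per kb), Ina (7.25) and Nefm (6.72) and the least for Syt1 (1.85). Of 8 stem cell markers, 7 were in the table and 0 lay above its median, with the most CPM for Tbx3 (1.49 log2 CPM per kb), Klf4 (2.11) and Esrrb (0.42) and the least for Fgf4 (-3.21). Of 7 markers of astrocytes and oligodendrocytes, 1 lay above it (Mbp, 3.42). Of 6 endoderm markers 1 lay above it (Sox17, 3.18), of 6 mesoderm markers 0 did, and of 5 markers of blood and microglia only Csf1r was in the table, at -4.51 log2 CPM per kb. In bulk RNA, the number of neurons and the RNA of a member per neuron cannot be told apart, so the part of neurons in the levels of the members was not tested. Setd2, the targeted gene, had an average log2 CPM of 6.88 over the libraries of both genotypes, which does not check the genotype.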

How the data were processed

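PolyA RNA of 3 Setd2-KO and 3 wild-type NPC libraries was sequenced by the authors. Trim Galore, STAR, edgeR and the builds NCBIM37 and mm9 stand in the submitters' processing notes, whereas the methods of the paper give GRCm39, GENCODE M35, Salmon and edgeR with a filter on low counts and TMM normalization. The deposited table holds, per gene, the authors' average log2 CPM over all 6 libraries, the only value used. Its other 4 value columns hold the authors' fold changes (shrunken and not), p-values and FDR and were not used. With no value per library, library depth could not be seen, and no test, SD, interval or comparison of the genotypes was computed.

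Gene IDs were matched without version to GENCODE vM39, where 15066 were found and 29 were not. The version number in the table was lower for 15053 of them, all 10 members included (9 against 18 for Celf1), and the same for 11. Reads were thus counted over an older annotation than the one that gave the lengths. Every level and share per kb carries this mismatch, and its size was not tested. Positions and lengths are from GENCODE vM39 on GRCm39 and promoter windows from RefSeq on GRCm38.p6, and no coordinates were converted. Level per kb is the average log2 CPM minus the log2 of the canonical transcript length in kb, and shares are linear CPM over the family's sum. Named genes were the members, Setd2, and up to 3 genes with the highest and 1 with the lowest average log2 CPM of each list. They need not be the extremes of a list on the per kb scale printed with them. Among the ELAVL targets, for example, Bdnf (-0.94 log2 CPM per kb) lay below Fos (-0.02). Genes overlapping members were named after the values were seen. The members and lists were chosen with earlier results of these data known. A level or share was taken as moved past 1.5-fold and a percentile past 5 points. Versions were Python 3.11.15, pandas 2.3.3, numpy 2.4.6 and matplotlib 3.10.9.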

Additional observations from a re-analysis of the deposited data

How the results depend on the processing

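Of 59 values computed under an alternative, 37 stayed within the limits set, 19 moved and 3 differences changed sign. No paired analysis was possible because the table holds no values per library, and for the same reason no library could be left out. Ranking the members among protein-coding genes moved 0 of 10 percentiles, and ranking them among genes at 0 or more log2 CPM gave 49.8 for Celf2, 47.2 for Celf5 and 10.3 for Celf6, against 56.0, 53.7 and 21.4 among all genes. With the merged length of all exons, the log2 CPM per kb was 0.22 for Celf2, 5.16 for Celf3, 2.79 for Celf4, 2.04 for Celf5, -1.82 for Celf6, 3.83 for Elavl1 and 2.26 for Elavl2, lower in each case because the merged exons are longer by construction, and Elavl3 stood above Celf3. Celf1, at 5.04 with merged exons, stayed within the limits and lay only just below Celf3. With the longest transcript, Celf6 was at -1.59 and the other 9 values stayed within the limits. Per kb, the share in the family was 27.6% for Celf1, 2.90% for Celf2, 52.6% for Celf3, 0.73% for Celf6 and 18.3% for Elavl1. The difference per kb was -0.93 for Celf1 minus Celf3, -0.15 for Elavl1 minus Elavl4 and -0.73 for Celf2 minus Celf5, where log2 CPM gave 0.37, 0.91 and 0.15. It was 0.88 for Elavl3 minus Celf1, 1.57 for Celf3 minus Elavl1 and 1.56 for Elavl2 minus Celf2. Celf6 was lowest on every scale and Elavl3 and Celf3 were the highest pair per kb with each of the 3 lengths. The planned identity between the member proteins was not run, since no protein sequences were used here. The average log2 CPM of a gene with few reads, such as Celf6, is the least precise, and which transcripts of a member the cells made was not analysed here.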
